A study of Mus musculus with 4 samples.

Results

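The expression of 8 genes was followed through the CD45+ cells of mouse tumors. The genes encode receptors and ligands with which phagocytes take up dying cells (Mertk, Axl, Gas6, Pros1, Timd4 and Stab1) and a receptor-ligand pair that restrains uptake (Sirpa and Cd47). They were chosen by name, as a list, and make up 8 of the 19059 genes measured. MC38 cells, a mouse colon carcinoma line, had been grown under the skin of C57BL/6 mice that carry a humanized CTLA-4 (B-hCTLA-4), and every group shared this host and tumor. Viable CD45+ cells were sorted after a density gradient for lymphocytes, fixed, and measured with the probe-based 10x Chromium Flex assay. There were 4 groups and 1 library in each, and per the sample records each library pooled tumors of 11 mice, taken on day 8 after treatment began at tumors of about 100 mm3.

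The groups were an isotype control (human IgG1), 2 single antibodies, and their combination. One antibody was ipilimumab, a human IgG1 against human CTLA-4, at 10 mg/kg, and the other was AT130-2 mIgG1-N297A, an antibody against mouse FcgRII with a mutated Fc part, at 20 mg/kg. The records of the single-antibody libraries conflict, since the title of each names one antibody and its treatment field the other. They are therefore called single antibody A (title anti-human CTLA-4) and single antibody B (title anti-mouse FcgRII), and no direction is assigned to either antibody alone. The article that describes these cells gives other numbers of tumors, another day, another tumor size and other doses than the sample records. With 1 library a group, no difference between treatments could be set against the spread between animals, and no test was made: each interval given is a 95% interval of counting error only.

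The removal of dying cells, efferocytosis, starts when a phagocyte recognizes phosphatidylserine on the surface of a dying cell. Mertk and Axl are receptor tyrosine kinases that do so through a bridge: Gas6 and protein S, the product of Pros1, bind phosphatidylserine at one end and the receptor at the other. Gas6 binds both receptors, whereas protein S binds Mertk and not Axl. Timd4 (TIM-4) and Stab1 (stabilin-1) bind phosphatidylserine directly. Sirpa (SIRP-alpha) is an inhibitory receptor of myeloid cells and Cd47 its widely expressed ligand, known as a don't-eat-me signal. Macrophages of tissues and tumors are the cells best known for this machinery.

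Of 28290 cells deposited, 26785 were kept, and they formed 28 clusters made without the 8 genes. The libraries held 6097 to 8173 cells before filtering, with medians of 14836 to 19115 unique molecular identifiers (UMIs, counted molecules) a cell. The 16523 macrophages, named from markers such as C1qa and Adgre1, filled 12 clusters that were read as 9 states named by leading genes. Immunoglobulin genes were also among the leading genes of the Arg1 and Spp1 state, and heat shock genes led the Ctsk and Hspa1a state. A further 347 cells with collagen genes (stromal-like) held Ptprc, the gene of CD45, in 31.1% of cells, against 71.8% or more elsewhere. Clusters of 1924 and 365 cells carried T or NK cell genes together with macrophage genes and were kept apart. No cell barcode was shared in full between libraries, while 712 to 1148 droplet barcodes were shared by each pair, as the samples had been pooled before loading. Among the other classes, 531 cells with at least 1% of UMIs from 9 macrophage markers were left out. A level is the sum of a gene's UMIs over the cells of a class, scaled to 1000000 UMIs of that class (CPM), and levels were compared between classes and libraries but never between genes.

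**Figure D1:**
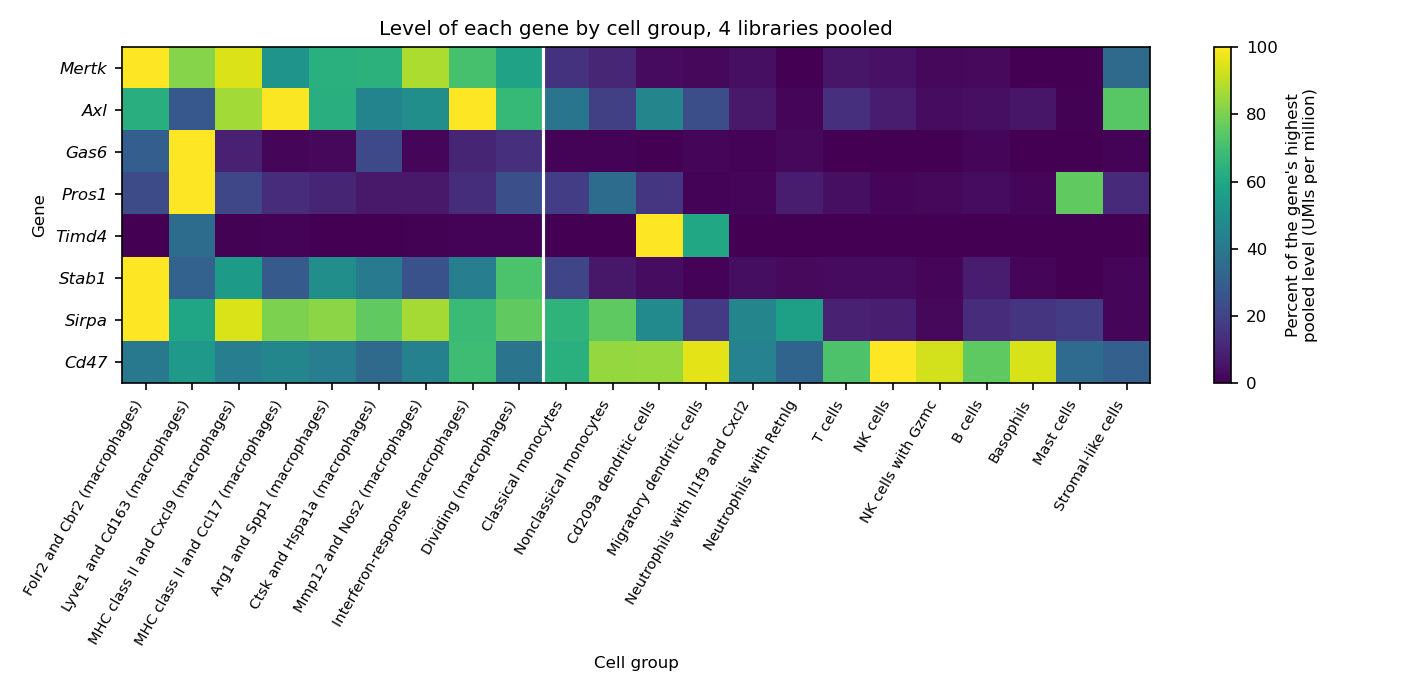
Level of each of the 8 genes in each macrophage state and other cell class, over the 4 libraries pooled, as the colour of each tile in percent of the gene's highest pooled level. Mertk and Stab1 are highest in macrophage states, and Gas6 in the Lyve1 and Cd163 state, with the other macrophage states at 29.7% of it or less. Timd4 is high in dendritic cells and the Lyve1 and Cd163 state, and Cd47 in NK cells, dendritic cells and basophils.

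Mertk (GRCm38, chr2:128698956-128802894, plus strand) was a macrophage gene in these tumors. Its level in macrophages was 110 CPM in the isotype control, 121 in A, 123 in B and 133 in the combination. With the libraries pooled, it was highest in the Folr2 and Cbr2 state, the one with genes of resident-like macrophages. That state held 149, 162, 159 and 176 CPM in the same order. The MHC class II and Cxcl9 state overlapped it, with 125, 153, 135 and 188 CPM, and was the higher of them in the combination. The macrophage states lay above every other class, and the lowest of them, the MHC class II and Ccl17 state (72.4 CPM or more), did not overlap the stromal-like cells (58.7 CPM or less). Classical monocytes, from which tumor macrophages can arise, held 20.2, 11.96, 28.5 and 31.6 CPM, and mast cells and basophils held no Mertk UMI.

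Mertk in macrophages was 1.21-fold [1.18 to 1.24] higher in the combination than in the isotype control, and 1.11-fold and 1.09-fold that of A and B. The groups lay in a narrow range, and Mertk did not reach the fold of 1.5 used as a call. Over all genes tested, the median ratio of combination to isotype control was 0.929. A lower ratio than that of Mertk was found for 91.7% of genes. By state, the Mertk ratio of combination to isotype control ran from 0.925 to 1.63, with 7 of 9 states above 1. Of all genes tested, 6.23% were higher in all 9 states, a stricter count that Mertk did not meet. No share of genes is given for 7 of 9. The Mertk ratio was 1.63 [1.41 to 1.89] in the Mmp12 and Nos2 state, 1.62 [1.16 to 2.26] in the Lyve1 and Cd163 state and 1.504 [1.41 to 1.61] in the MHC class II and Cxcl9 state. In the dividing macrophages, by contrast, the 4 libraries lay between 91.5 and 95.2 CPM. With the states weighted as in the isotype control, the ratio over all macrophages was 1.16.

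Axl (GRCm38, chr7:25757273-25788705, minus strand) was spread over more classes than Mertk. Macrophages held 606, 622, 530 and 483 CPM in the isotype control, A, B and the combination. The interferon-response state (903, 878, 758 and 675 CPM) and the MHC class II and Ccl17 state (830, 919, 764 and 669 CPM) had the highest levels and overlapped each other. Outside macrophages, Axl was high in stromal-like cells at 488, 588, 544 and 713 CPM, in the Cd209a dendritic cells at 322, 336, 453 and 383 CPM, and in classical monocytes at 327, 301, 336 and 286 CPM. Nearly every neighbour in the order of classes overlapped the next, and 1 of 21 neighbouring pairs stood apart.

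The Axl level of macrophages was lower in the combination, at 0.798 [0.788 to 0.808] of the isotype control, 0.777 of A and 0.912 of B. Single antibody B was itself at 0.875 of the isotype control, so the combination and B formed the lower pair of libraries. The ratio of combination to isotype control was below 1 in 8 of 9 states, and the ninth was the Lyve1 and Cd163 state, at 1.57 [1.27 to 1.93] on 29 and 34 cells. Of all genes tested, 18.8% were lower in all 9 states, a stricter count that Axl did not meet, and no share is given for 8 of 9. The Axl ratio was lowest in the Mmp12 and Nos2 state at 0.652, where Mertk had its highest ratio. In stromal-like cells the same ratio went the other way, at 1.46 [1.39 to 1.54]. Axl and Mertk thus had ratios on opposite sides of 1 in the macrophages as a whole, neither of them past 1.5-fold.

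**Figure D2:**
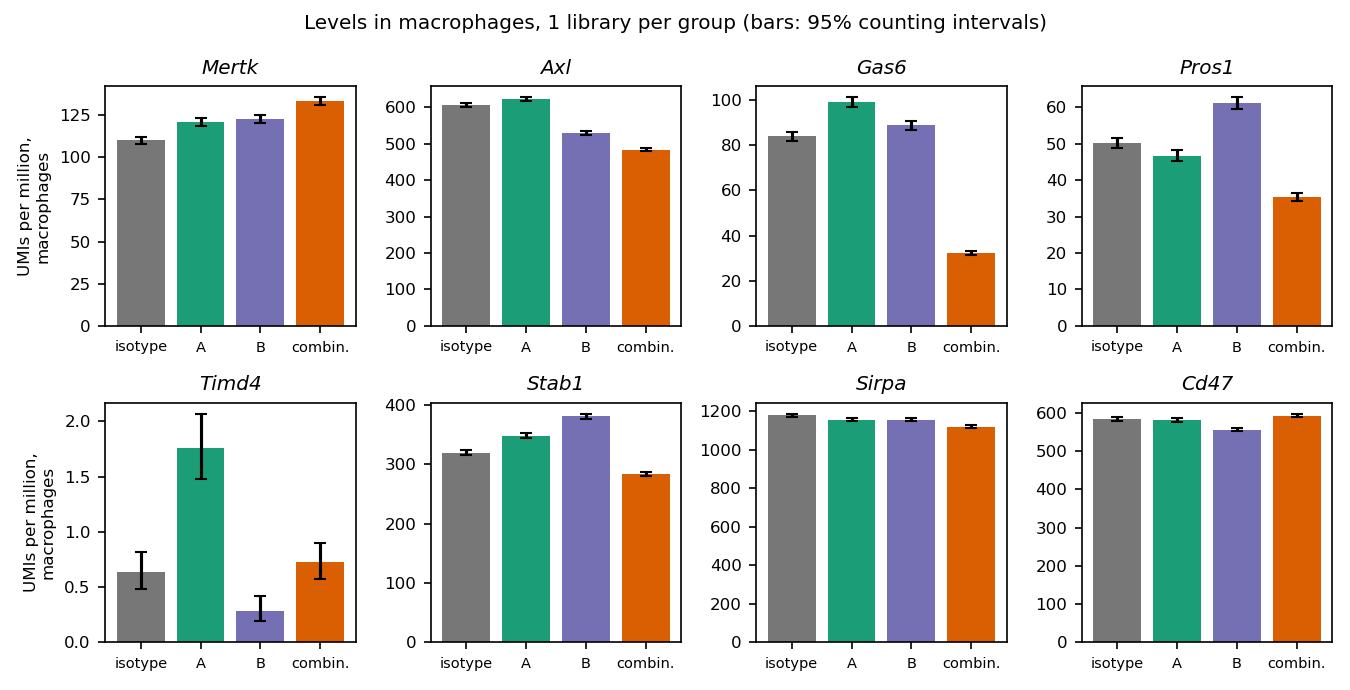
Level in macrophages (CPM, 1 panel a gene with its own axis from 0) in the 4 libraries, with exact 95% Poisson intervals that cover counting error only. Gas6 is at 32.3 CPM in the combination against 83.9 to 99.0 CPM in the other libraries, while Sirpa and Cd47 are nearly level.

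Gas6 (GRCm38, chr8:13465374-13494490, minus strand), the ligand shared by Axl and Mertk, was the one of the 8 genes that differed most between the combination and the other libraries. Macrophages held 83.9 CPM in the isotype control (7689 UMIs), 99.0 in A (8061 UMIs), 88.8 in B (8310 UMIs) and 32.3 in the combination (3554 UMIs). The combination stood well below the other 3 libraries, which lay close together. Its level was 0.384 [0.369 to 0.4001] of the isotype control, 0.326 [0.313 to 0.339] of A and 0.363 [0.349 to 0.378] of B, while A and B were at 1.18 and 1.06 of the isotype control. Of 9467 genes tested in macrophages, 3.08% were at least 1.5-fold lower in the combination than in the isotype control, and 0.264% had a lower ratio than Gas6, which ranked 26 from the lowest.

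The difference was found throughout the macrophages. Gas6 was lower in the combination than in the isotype control in 9 of 9 states, with ratios from 0.231 to 0.628, each past 1.5-fold and each with an interval below 1. Of the 9467 genes, 0.359%, or 34 genes, were at least 1.5-fold lower in all 9 states; these included Elmo1, which acts in engulfment, the monocyte chemokine receptor Ccr2 and the heat shock gene Hspa1a. In the Folr2 and Cbr2 state the levels were 169, 183, 155 and 62.7 CPM, and in the Ctsk and Hspa1a state they were 118, 120, 127 and 35.7 CPM. Dividing macrophages held 72.8, 80.0, 68.7 and 33.6 CPM. In each of these states the combination was the lowest library by a wide margin.

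The states themselves differed in Gas6 by more than the libraries did. The Lyve1 and Cd163 state, a small cluster led by Retnla, Saa3, Lyve1 and Cd163, had the highest level at 350, 736, 217 and 220 CPM on 34, 58, 22 and 29 cells. Here the combination and B were level, so this was the exception to the combination being lowest in the other 8 states. The MHC class II and Ccl17 state was at the other end, with 7.67, 8.19, 6.87 and 2.01 CPM, and the Arg1 and Spp1 state held 13.2, 5.22, 21.2 and 3.05 CPM. With the states weighted as in the isotype control, the ratio of combination to isotype control over all macrophages was 0.395, close to the unweighted value. The 9 macrophage markers summed to 33306, 36155, 36624 and 27564 CPM in macrophages of the same libraries, lowest in the combination as well, and neutrophil markers to 136, 139, 120 and 270 CPM; their part in the Gas6 difference was not tested.

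Fewer macrophages carried a Gas6 UMI in the combination when all cells were drawn to the same depth. At 7634 UMIs a cell, the share was 25.4% in the isotype control, 27.5% in A, 28.6% in B and 13.3% [12.2 to 14.4] in the combination. The size of the share depended on depth and cutoff: without drawing it was 34.5%, 38.8%, 41.6% and 26.02%, and for at least 2 UMIs at the common depth 12.9%, 14.04%, 13.9% and 4.401%, with the combination lowest each time. The T and NK cells, which should lack the gene, gave 0.208% at 2132 UMIs a cell, where macrophages gave 9.77% (median depths before drawing 4683 and 19457 UMIs). Classical monocytes lay near the lymphocytes, with 0.378%. Their levels were 2.65, 3.99, 4.48 and 4.51 CPM on 57 UMIs in all, and the ratio of combination to isotype control, 1.70 [0.791 to 3.89], was not resolved at this depth. The mixed clusters with T cell genes held 70.5, 49.1, 71.4 and 28.3 CPM of Gas6, with the combination again lowest.

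Pros1 (GRCm38, chr16:62854307-62929346, plus strand), the gene of protein S, had another distribution than Gas6. Macrophages held 50.2, 46.7, 61.1 and 35.3 CPM in the isotype control, A, B and the combination, so B was highest and the combination lowest. The Lyve1 and Cd163 state was highest at 257, 293, 282 and 111 CPM, followed by mast cells at 194, 147, 210 and 197 CPM. Mast cells stood apart from nonclassical monocytes, the patrolling blood monocytes, which came next with 93.9, 91.7, 94.6 and 72.7 CPM. Classical monocytes held 56.1, 41.7, 51.3 and 36.3 CPM, about the level of the macrophages. At 2132 UMIs a cell, a Pros1 UMI was found in 8.71% of classical monocytes, 8.46% of macrophages and 1.30% of T and NK cells.

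In macrophages the Pros1 level of the combination was 0.703 [0.674 to 0.734] of the isotype control, 0.756 [0.723 to 0.791] of A and 0.578 [0.555 to 0.602] of B. Only the comparison with B passed 1.5-fold, where 3.54% of genes were that much lower. The ratio to the isotype control was below 1 in 9 of 9 states, from 0.432 to 0.831, with 4 states past 1.5-fold. Of all genes tested, 18.8% were lower in the combination in all 9 states. Monocytes went the same way: the ratio was 0.647 [0.529 to 0.790] in classical and 0.774 [0.651 to 0.917] in nonclassical monocytes, and 0.532 [0.333 to 0.824] in the Cd209a dendritic cells. Mast cells, with 57 and 70 UMIs, had a ratio of 1.01 [0.702 to 1.46].

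**Figure D3:**
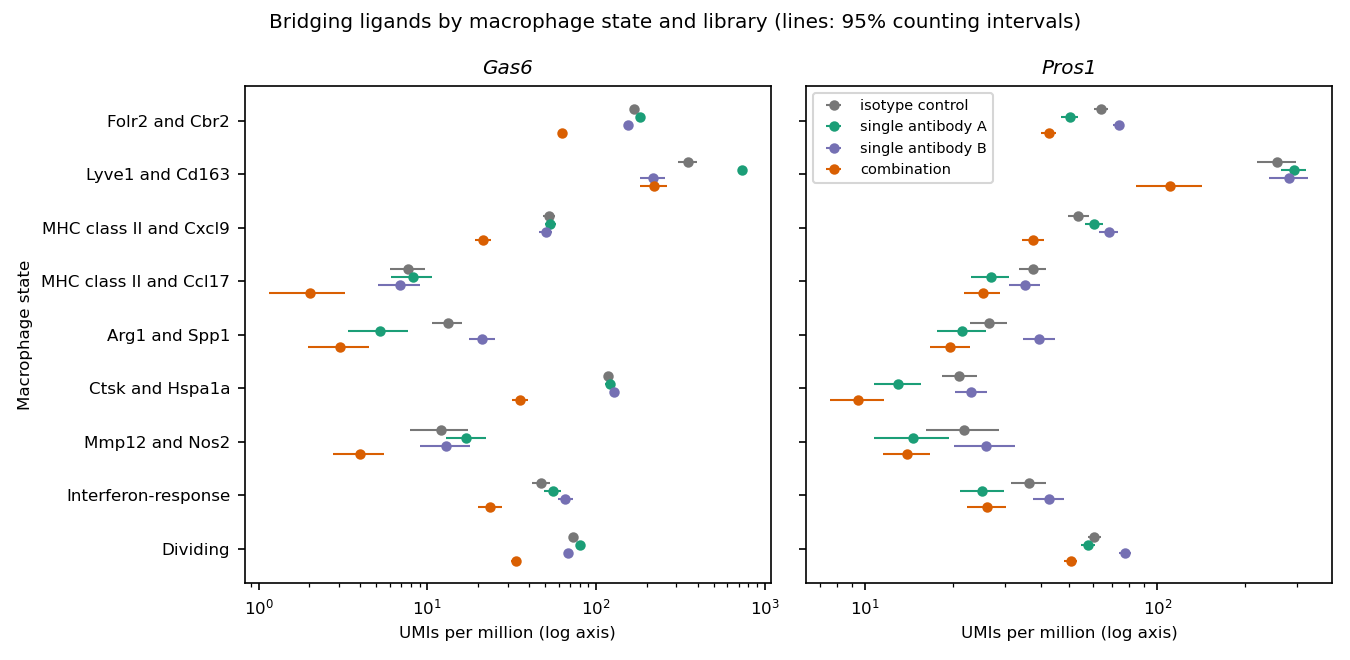
Levels of Gas6 and Pros1 (CPM, log axis) in the 9 macrophage states, with 1 point a library and exact 95% Poisson intervals of counting error. The combination is the lowest library for Gas6 in 8 states and for Pros1 in 8 states.

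The sequence before the start of each ligand gene is shown because these were the 2 genes with the lowest ratios in macrophages. It comes from the RefSeq promoter table for GRCm38.p6, which held entries for 7 of the 8 genes, and is given 5′ to 3′ on the strand of the gene, with the 250 bases before the start. Capitals mark a match to TTCNNNGAA, the core of the interferon-gamma activated site; Gas6 at chr8:13494536-13494785 (minus strand) and Pros1 at chr16:62854057-62854306 (plus strand) read:
Gas6: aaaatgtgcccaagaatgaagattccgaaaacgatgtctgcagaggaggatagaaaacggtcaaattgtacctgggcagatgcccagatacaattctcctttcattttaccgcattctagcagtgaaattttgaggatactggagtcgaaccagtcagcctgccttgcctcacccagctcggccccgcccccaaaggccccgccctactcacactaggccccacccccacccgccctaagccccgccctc
Pros1: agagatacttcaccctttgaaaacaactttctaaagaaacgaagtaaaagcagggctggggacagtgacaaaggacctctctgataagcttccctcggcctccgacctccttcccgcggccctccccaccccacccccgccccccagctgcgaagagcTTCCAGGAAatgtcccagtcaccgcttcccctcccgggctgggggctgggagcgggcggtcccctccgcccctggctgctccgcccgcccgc

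Across 32851 promoters of this length, 7.02% held TTCNNNGAA on either strand, so the match in Pros1 is one that many genes share. The other motifs searched on both strands were the core of the interferon-stimulated response element (2.98% of promoters), TGCTGAC (Maf half-site, 3.81%) and the DR4 repeat bound by liver X receptors (0.0152%). Timd4 held 1 match to TGCTGAC, and no further match was found in the 7 promoters. These are matches of letters and not measured binding sites.

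Timd4 (GRCm38, chr11:46810800-46844332, plus strand) was a gene of few cells. Macrophages held 0.633, 1.76, 0.289 and 0.726 CPM in the isotype control, A, B and the combination (58, 143, 27 and 80 UMIs), below the minimum of 5 CPM for a comparison. Its highest level among the macrophage states was in the Lyve1 and Cd163 state, at 28.0, 65.8 and 13.4 CPM in the first 3 libraries. The 29 cells of the combination held no UMI, with a counting bound of 6.70 CPM. That bound takes UMIs as independent, whereas the UMIs of this state lay in few cells, so the true level could be higher. In this state, 10 of 143 cells (6.99%) had a Timd4 UMI, against 41 of 16380 other macrophages (0.250%). By number, most Timd4 UMIs of macrophages were outside this small state, with 197 in the other states, 100 of them in dividing macrophages, and 111 within it. T and NK cells gave 1 of 3001 cells (0.0333%).

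Dendritic cells held the most Timd4. The Cd209a dendritic cells, a cluster of mixed makeup with Siglech and cDC1 genes too, had 88.9, 99.6, 171 and 65.2 CPM, and migratory dendritic cells had 0, 121, 60.5 and 78.8 CPM on 33, 16, 11 and 33 cells. Only 63 of the 480 Cd209a dendritic cells (13.1% [10.2 to 16.5]) had a UMI, and 49 cells with 3 or more UMIs held 95.9% of the 535 UMIs. The share was 11.98%, 14.4%, 15.2% and 11.9% in the isotype control, A, B and the combination, which overlap within their intervals. Timd4 was thus concentrated in a minority of the cluster in every library.

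The cells with Timd4 differed from the rest of that cluster in several marker genes. Of 6 cDC1 genes, 4 were higher in cells with Timd4: Itgae (CD103) at 236 against 40.6 CPM in cells without, Xcr1 at 86.9 against 25.1, Cadm1 at 61.7 against 17.5 and Tlr3 at 144 against 58.1. The other cDC1 genes were lower, with Clec9a at 134 against 180 CPM and Irf8 at 574 against 1111 CPM. The genes of the Cd209a list went both ways, with Cd209a itself at 302 against 728 CPM, Clec10a at 83.5 against 179.8 and Flt3 at 66.3 against 83.6, but Mgl2 at 935 against 586 and Kmo at 417 against 353. The 4 genes of plasmacytoid dendritic cells were all lower, among them Siglech at 3.43 against 297 CPM. Of 6 migratory genes 5 were higher, among them Ccr7 at 177 against 67.7 CPM, and Ccl22 was lower at 181 against 349.8 CPM. Some of the 5 were nearly level, with Il4i1 at 104 against 100 CPM and Fscn1 at 6.86 against 6.15 CPM. Of cells with at least 2 cDC1 genes, 16 of 89 (17.98%) had Timd4, and of other cells with a Cd209a UMI, 19 of 233 (8.15%). Their median depths were 10839 and 8613 UMIs. These groups do not cover all of the 480 cells or of the 63 cells with Timd4. The groups held 125 and 104 of the cluster's 535 Timd4 UMIs, so most UMIs lay in cells of neither group. Those cells had Timd4 in a share close to that of the cells with at least 2 cDC1 genes. The shares therefore do not single out the cDC1-like cells. These are values over cells of 4 libraries and serve as a description.

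Stab1 (GRCm38, chr14:31139013-31168641, minus strand) marked macrophages by level and by order. It was at 319, 348, 380 and 283 CPM in macrophages of the isotype control, A, B and the combination. The Folr2 and Cbr2 state was highest at 515, 563, 563 and 444 CPM and did not overlap the dividing macrophages, which came next at 354, 399, 407 and 337 CPM. Dividing macrophages in turn stood above the MHC class II and Cxcl9 state. Stab1 and Gas6 were among the 10 leading genes of the Folr2 and Cbr2 cluster, although neither was used to form it. Unlike Gas6, Stab1 was low in the Lyve1 and Cd163 state, at 84.1, 214, 162 and 133 CPM, and present in classical monocytes at 106, 96.9, 107 and 121 CPM.

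The combination was the library with the lowest Stab1 in 8 of 9 states, a count for which no share of all genes is given. Over all macrophages its level was 0.886 of the isotype control, 0.814 of A and 0.744 of B, while A and B were at 1.09 and 1.19 of the isotype control. The difference was therefore larger against the single antibodies than against the control, and did not pass 1.5-fold in any comparison. The median ratios over all genes were themselves below 1, at 0.929 to the isotype control, 0.967 to A and 0.949 to B. In the same order, 35.0%, 8.60% and 7.69% of genes had a lower ratio than Stab1. The Lyve1 and Cd163 state was the exception here as for Axl, with a ratio of 1.58 [1.09 to 2.29] to the isotype control. At 7634 UMIs a cell, 72.1%, 74.0%, 77.9% and 69.4% of macrophages had a Stab1 UMI.

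**Figure D4:**
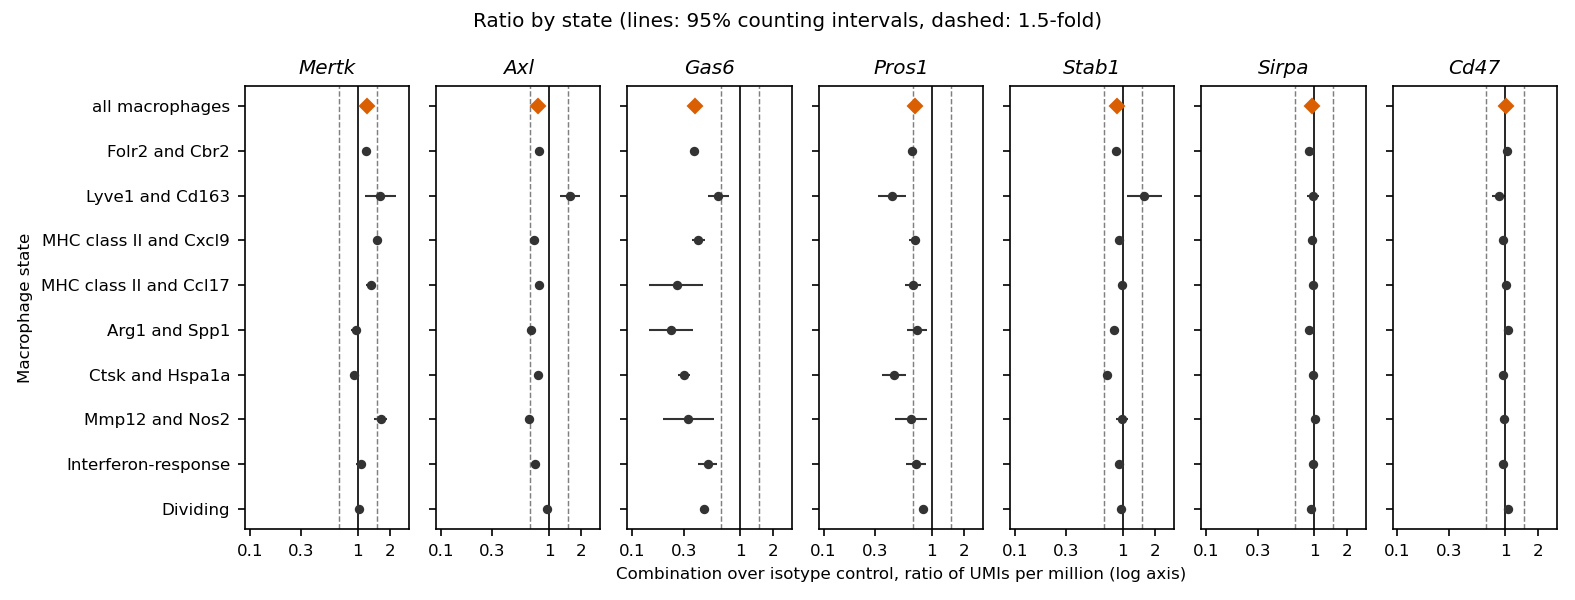
Ratio of the combination to the isotype control (log axis) for the 7 genes above the minimum level, with 1 point for each of 9 macrophage states, a diamond for all macrophages, exact 95% intervals of counting error and dashed lines at 1.5-fold. All Gas6 points lie at 0.628 or lower, Pros1 points lie between 0.432 and 0.831, and Sirpa and Cd47 points lie near 1.

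Sirpa (GRCm38, chr2:129592835-129632228, plus strand) was found in all myeloid classes. Macrophages held 1178, 1155, 1155 and 1119 CPM in the isotype control, A, B and the combination, the narrowest span of the 8 genes. The Folr2 and Cbr2 state was again highest at 1438, 1385, 1354 and 1287 CPM, with the MHC class II and Cxcl9 state next and overlapping it. Nonclassical monocytes held 1060, 1034, 929 and 1007 CPM and classical monocytes 874, 845, 922 and 903 CPM. Neutrophils held 485, 625, 642 and 671 CPM on 99, 90, 42 and 451 cells. With the libraries pooled, stromal-like cells were lowest, and they held 22.4, 34.3, 15.6 and 21.7 CPM by library. The NK cells led by Gzmc, at 9.37 to 68.6 CPM, overlapped them.

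The ratio of combination to isotype control for Sirpa in macrophages was 0.951 [0.943 to 0.958], and the states ran from 0.895 to 1.01. The median ratio over all genes tested was 0.929, so Sirpa lay above the middle of the genes, and 56.8% had a lower ratio. Its direction depended on the scaling: with size factors in place of total UMIs the ratio was 1.03. The interval bounds the counting error of a difference of a few percent and says nothing of the spread between tumors.

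Cd47 (GRCm38, chr16:49800533-49915010, plus strand) was the one gene of the 8 whose level in CPM was lower in macrophages than in lymphocytes. NK cells held 1303, 1369, 1329 and 1260 CPM and T cells 937, 1043, 922 and 950 CPM, against 583, 581, 556 and 592 CPM in macrophages. Over T and NK cells together, the macrophage level was 0.523, 0.502, 0.484 and 0.530 of the lymphocyte level, the same direction in 4 of 4 libraries. The other 7 genes were higher in macrophages in 4 of 4. No share of all genes is given beside this count, so it only describes where the 8 genes were found. For Timd4, below the minimum of 5 CPM, this rests on few UMIs. T and NK cells held 2 of them in A and 0 in each other library. Without drawing to 1 depth, 94.8% of T and NK cells and 98.2% of macrophages had a Cd47 UMI, at median depths of 4683 and 19457 UMIs. At 2132 UMIs a cell the shares were 87.2% and 68.4%, so macrophages were lower at a common depth but not without it. Between these classes the pair was thus distributed in opposite ways, with Sirpa UMIs at that depth in 7.48% of T and NK cells and 87.6% of macrophages. Classical monocytes had both, with Sirpa in 79.6% and Cd47 in 79.6% of cells at the same depth.

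Among macrophages, the interferon-response state stood out for Cd47. It held 963, 972, 924 and 913 CPM and did not overlap classical monocytes, next in order at 843, 901, 845 and 870 CPM. The Lyve1 and Cd163 state came after these, at 761, 797, 636 and 660 CPM, and the Ctsk and Hspa1a state was the lowest macrophage state at 494, 482, 455 and 468 CPM. The interferon-response state had the lowest Sirpa of the larger states, with 936, 928, 932 and 906 CPM. Between treatments, Cd47 in macrophages of the combination was 1.01 [1.00 to 1.03] of the isotype control, 1.02 of A and 1.07 of B, with states from 0.867 to 1.06.

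Small classes gave wider values. Cd47 in mast cells was 355, 461, 529 and 608 CPM on 32, 15, 20 and 23 cells. In neutrophils it was 426, 569, 493 and 626 CPM. There, 25.8% of the genes tested were at least 1.5-fold higher in the combination than in the isotype control and 18.7% lower, and Sirpa (1.38 [1.17 to 1.65]) and Cd47 (1.47 [1.22 to 1.77]) did not reach that fold. The neutrophils of the other libraries were few, and the Il1f9 and Cxcl2 cluster made up most of the 451 cells of the combination.

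**Figure D5:**
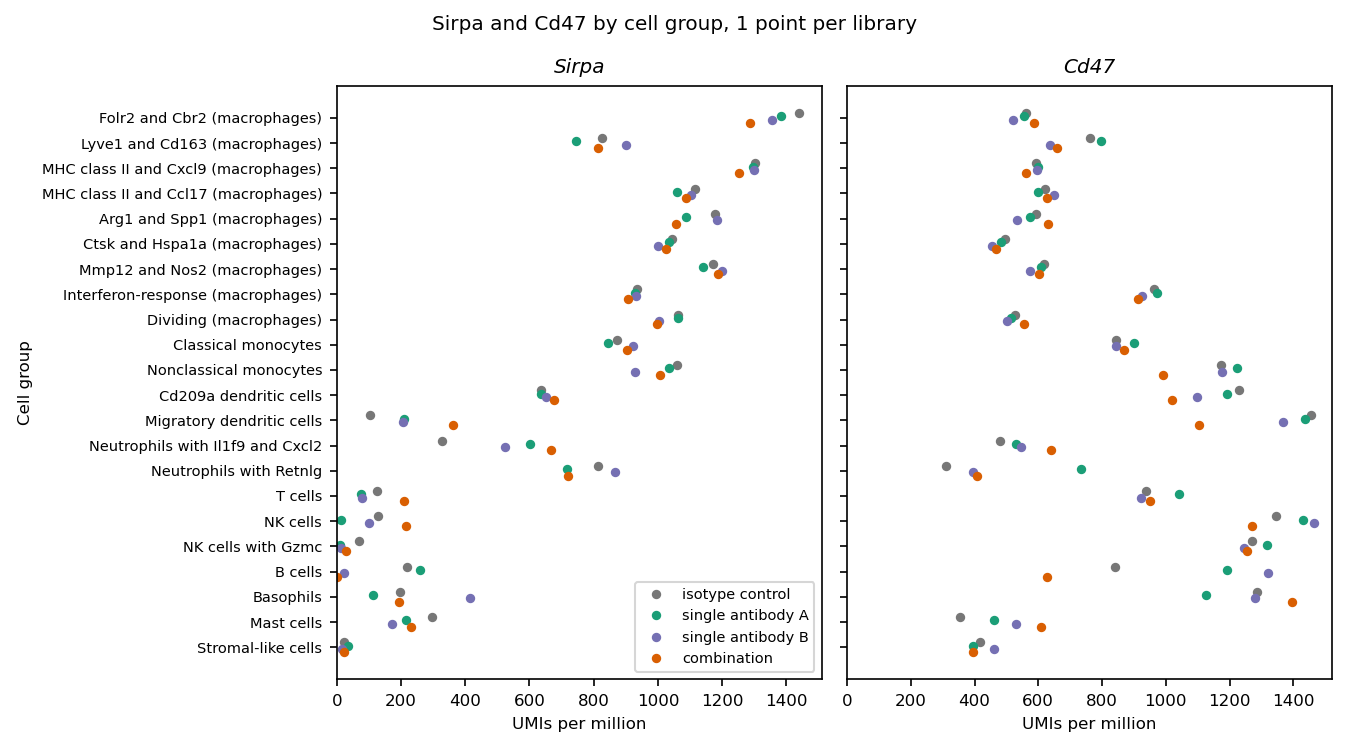
Levels of Sirpa (left) and Cd47 (right) on horizontal axes in CPM, with 1 row for each macrophage state or cell class and 1 point for each library. T and NK cells lie at low Sirpa and high Cd47, and macrophages at high Sirpa, with the interferon-response state above the other macrophage states in Cd47.

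T and NK cells gave low levels of the uptake genes, and these were set beside the macrophage RNA that such cells carried. In the T cells kept, the 9 macrophage markers reached 3.57% to 15.3% of their macrophage level, with a median of 5.49%. Mertk at 7.83%, Gas6 at 2.01%, Stab1 at 4.88% and Sirpa at 10.9% were within or below this range. Axl at 19.9% and Pros1 at 21.4% lay above it. In NK cells the markers reached 1.59% to 7.53%, with Axl at 7.31% inside the range and Pros1 at 10.7% above it. The cells kept had been chosen by a limit on these same 9 markers, so the choice itself lowered both ranges. With the 93 NK cells over the limit put back, the markers reached 11.4% to 18.9%, Axl 18.1% and Pros1 24.4%.

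Axl was at 118, 80.5, 120 and 142 CPM in T cells of the isotype control, A, B and the combination. Regulatory T cells held 168, 134, 199 and 193 CPM on 81, 48, 36 and 8 cells, CD8 T cells 121, 82.2, 99.5 and 157 CPM, and conventional CD4 T cells 85.4, 65.9, 83.4 and 94.0 CPM. The order of these subsets was the same in 4 of 4 libraries. The summed macrophage markers in T cells were 1998, 981, 1206 and 2351 CPM, lowest in A as Axl was. With the 321 T cells over the limit put back, the markers reached 38.6% to 49.5% of the macrophage level, Axl 51.1% and Pros1 61.3%; the part of macrophage RNA in the T cell levels was not tested.

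Set against all genes, the 8 genes were not a group that moved together. Of the 7 above the minimum level, 1 (Gas6) was past 1.5-fold between combination and isotype control, and it was lower. Of all genes, 3.08% were that much lower there and 3.78% higher. Between combination and A, 1 (Gas6) was lower (2.07% of genes lower, 3.13% higher). Between combination and B, 2 of the 7 (Gas6 and Pros1) were lower (3.54% of genes lower, 5.34% higher). None was past 1.5-fold between A and the isotype control (0.792% of genes lower, 0.697% higher) or between B and the isotype control (1.85% lower, 0.665% higher). Their median ratios were 0.886, 0.814, 0.912, 1.03 and 1.06 in these 5 comparisons, beside 0.929, 0.967, 0.949, 0.964 and 0.983 over all genes. The comparisons share libraries and are not independent of each other. A median-of-ratios scaling shifted all ratios of combination to isotype control by 0.11 on the log2 scale, and relative to it Gas6 was at 0.415 and Pros1 at 0.759.

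In the wider set of uptake genes, a few genes differed and most did not. Of 65 genes listed, 64 were measured and 56 passed the minimum level in macrophages. Between combination and isotype control 4 were at least 1.5-fold lower and 5 higher (3.08% and 3.78% of all genes), with a median ratio of 0.951. Between combination and A there were 3 lower and 3 higher (2.07% and 3.13% of all genes), and between combination and B 5 lower and 7 higher (3.54% and 5.34% of all genes). The single antibodies differed less from the isotype control, with 0 lower and 1 higher for A (0.792% and 0.697% of all genes) and 0 lower and 4 higher for B (1.85% and 0.665%). Taken as shares of the 56 genes, the counts above 0 were each larger than the share of all genes. This difference was not tested.

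Among receptors and bridging proteins the differences went both ways. Itgb5, a subunit of an integrin that binds the bridge Mfge8, was at 638, 534, 697 and 316 CPM, lowest in the combination with a ratio of 0.495 to the isotype control. Cd36, a scavenger receptor for oxidized lipids and dying cells, was at 88.9, 131, 138 and 372 CPM, with a ratio of 4.18. The scavenger receptor Marco was at 4.39, 5.46, 6.88 and 35.3 CPM, with a ratio of 8.04. Scarf1, which binds C1q on dying cells, was at 6.83, 8.99, 6.70 and 13.3 CPM, with a ratio of 1.94. In these 3 scavenger receptors the combination was the highest library, where Itgb5 and Gas6 were lowest.

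The remaining lists held 5 genes past 1.5-fold. Of 12 engulfment and digestion genes tested, 1 was lower: Elmo1, part of the complex that activates Rac during engulfment, at 336, 275, 360 and 178 CPM. Of 7 regulators, 1 was higher: Nr1h3 (liver X receptor alpha), which is known to induce Mertk, at 39.7, 48.8, 71.8 and 78.6 CPM, so that B and the combination formed the upper pair. S1pr1, a receptor for a find-me signal, had a ratio of 0.638 to the isotype control. Of 13 genes of other don't-eat-me signals, Siglece, an inhibitory receptor for sialic acid, was at 118, 109, 115 and 70.7 CPM. B2m, whose product pairs with MHC class I and can also restrain uptake, was at 1047, 2314, 2022 and 3338 CPM, and had the highest ratio of this list's tested genes for each single antibody over the isotype control.

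The genes whose levels ran most like each of the 8 were found among 10230 genes, by Pearson's r of log2(CPM + 1) over 78 points. Each point was a macrophage state or other cell group in 1 library with at least 20 cells, so differences among macrophage states enter r. The points share libraries and depth, so r is a description. Gas6 was most like Cbr2 (0.889), Folr2 (0.884) and Fcna (0.874), and Stab1 most like Abcc3 (0.936), Rab5c (0.924) and the complement gene C1qa (0.924). For Sirpa these were Lrrc25 (0.958), Cd300c2 (0.956) and Pirb (0.947), and for Mertk Scamp5 (0.906), Nrp2 (0.893) and Etv1 (0.892). Axl ran with Cttnbp2nl (0.902), Cmtm3 (0.877) and Anxa5 (0.874), the last of which binds phosphatidylserine. Values were lower for Cd47 with Clec2i (0.825), Nfkb1 (0.806) and B4galnt1 (0.797), for Timd4 with Cd209d (0.776), Kmo (0.762) and Hepacam2 (0.739), and for Pros1 with Wdr41 (0.772), Fam217b (0.715) and Acer3 (0.709). Among the 8 genes themselves, Mertk and Stab1 (0.884) and Mertk and Axl (0.857) were most alike, and Sirpa and Cd47 were at -0.296.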

How the data were processed

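The authors deposited raw UMI counts per gene and cell for each of 4 libraries, made with Cell Ranger (7.0.0 in the processing notes, 7.2.0 in the file headers) on mm10, from a probe set that covers 19059 genes. Per the study's methods, Cell Ranger was run with default settings, and doublets (DoubletFinder) and low-quality cells were removed later, in Seurat, with cutoffs not given in the sources used here. Loci are those of GENCODE M21. Cells with under 500 genes (67) or over 10% mitochondrial UMIs (48) were left out, and so were the 5% of cells with the highest Scrublet score in each library (1409 in all), because its automatic threshold marked almost none. The libraries were integrated in R 4.3.3 (Seurat 5.3.0, sctransform 0.4.2) on 3000 features less those of the 8 genes among them, with 30 principal components and a resolution of 0.8, following the steps of the study. Everything else was done in Python 3.11.15 with scipy 1.17.1 and scanpy 1.11.5.

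Counts were summed over the cells of a class and divided by that class's total UMIs (CPM); a level has an exact Poisson interval and a ratio an exact conditional interval. A gene was called past the fold at a ratio of at least 1.5 or at most its inverse, where its mean was at least 5 CPM over the 4 libraries. Shares of cells with a UMI are expected shares after each cell is drawn to 1 depth, 7634 UMIs for macrophages and 2132 for comparisons with lymphocytes (shallower cells left out), with Clopper-Pearson intervals. Total UMIs per library were 178178393, 129151823, 142472286 and 196362818 for the isotype control, A, B and the combination. With 1 library a group there was no test. The scripts were tested on simulated data.

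The 8 genes and the lists were chosen with earlier results of these data known. The genes named are the 8, those of the list of 65 past 1.5-fold between combination and isotype control in macrophages, and the 3 most alike to each of the 8; Elmo1, Ccr2 and Hspa1a among the 34 genes lower in every state, and the marker genes beside Timd4, were chosen after their values were seen. The limit of 1% macrophage UMIs, used for classes other than macrophages, monocytes, stromal-like and mixed cells, was also set after the data were seen. The alternatives were other scaling, fold, minimum level, filters, clustering and depth.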

Additional observations from a re-analysis of the deposited data

Results flagged for a closer look

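Between whole cell classes, not divided into states or subsets, Stab1 was the one of the 8 genes whose ratio of combination to isotype control was at least 1.5-fold above 1 in some classes and at least 1.5-fold below 1 in another, with intervals that excluded 1 and at least 20 cells in both libraries. In macrophages it was 0.886 [0.872 to 0.901]. In the Cd209a dendritic cells it was 3.11 [1.81 to 5.45], on 39 UMIs in the combination and 23 in the isotype control. In T cells it was 1.59 [1.06 to 2.45], on 85 and 34 UMIs, and in NK cells 0.529 [0.334 to 0.839], on 41 and 40 UMIs. The 9 macrophage markers were summed in the isotype control and the combination. They were nearly level in the Cd209a dendritic cells, at 1482 and 1513 CPM. In T cells they were at 1998 and 2351 CPM, and in NK cells at 1369 and 883 CPM. The difference between the classes was not tested, and neither was the part of macrophage RNA in it.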

How the results depend on the processing

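The count of the 8 genes past 1.5-fold was within 1.5 times its value in 85 of 90 recomputations. The 5 that differed were 2 genes for combination over isotype control with cells drawn down to 1 depth (Pros1 joined at 0.626), 2 for combination over A, 1 for A over the isotype control and 1 for B over the isotype control with no minimum level (Timd4 joined), and 1 for combination over B at 2-fold (Gas6). Over 15 alternatives the ratio of combination to isotype control ran from 0.375 to 0.415 for Gas6, 0.626 to 0.759 for Pros1, 0.764 to 0.861 for Axl and 1.16 to 1.31 for Mertk. Each of these ranges reached beyond its counting interval, which does not cover the choice of processing. Among all recomputed ratios, 143 moved and 457 did not. Sirpa (0.938 to 1.03) and Cd47 (0.981 to 1.10) crossed 1 in 1 alternative each. Shares of macrophages with a UMI moved in 54 of 64 recomputations, without drawing to 1 depth or with at least 2 UMIs. The 7 genes higher in macrophages than in T and NK cells numbered 7 in all 13 alternatives, again with no share of all genes beside them. Keeping T and NK cells with macrophage RNA, leaving out the MHC class II and Ccl17 state, and counting the mixed clusters as macrophages were added after the data were seen. No paired analysis was possible because each group was 1 library, and no library could be left out. Gas6 in lymphocytes and monocytes, and Timd4 in any class by library, rest on few UMIs, which limits them.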
